A study of Homo sapiens with 8 samples.

Results

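The replication-dependent histone genes encode the core histones H2A, H2B, H3 and H4, around which DNA is wound, and the linker histone H1. They were taken here as all array elements, control spots aside, that the array design names HIST1H, HIST2H, HIST3H or HIST4H. This gave 84 array elements for 70 genes, of 50599 elements for 36337 genes on the array. By type there were 6 H1, 17 H2A, 19 H2B, 13 H3 and 15 H4 genes. By cluster there were 56 HIST1, 10 HIST2, 3 HIST3 genes and 1 HIST4 gene. The HIST1 elements lay between positions 25726563 and 27861647 of chromosome 6 (hg19), the HIST3 elements on chromosome 1 and HIST4H4 on chromosome 12. The HIST2 elements lay on chromosome 1, except that an element of HIST2H2BA and that of HIST2H4A had no position. HIST1H2APS1 (now H2AC2P) and HIST2H2BA (now H2BP1) are pseudogenes by their symbols and are counted among the 70. Current nomenclature has renamed these genes (HIST1H2BM is H2BC14, HIST1H4C is H4C3), and the names of the array are used below.

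The data are 8 one-colour Agilent arrays of RNA from 2 established thyroid lines, with 2 arrays in each of 4 groups. Nthy-ori 3-1, an immortalised non-tumoral follicular line, received pre-miR-375, a synthetic precursor that raises miR-375, or a control (CTL), each at 5 nM in the labels. TT, from a medullary thyroid carcinoma, a tumour of calcitonin-producing C cells, received antagomiR-375, an antisense inhibitor of miR-375, or a control (CTL), each at 20 nM in the labels. All cells were transfected for 48 h with a lipid reagent, so that control cells carried a transfected RNA as well. The labels do not name the control reagents, which the methods of the study call pre-miR-CTL and antagomiR-CTL. Each line is a single line and stands for no other thyroid cell. The comparisons ask how the histone genes stood when miR-375 was added to a line or inhibited in the other, and how the lines differed in the control state.

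Most histone mRNAs are made in S phase, when new DNA needs packaging, and are degraded when replication ends. They carry no poly(A) tail but end in a conserved stem-loop, cut under the guidance of U7 snRNP and bound by SLBP. Some histone genes also make polyadenylated transcripts from sites further downstream, as HIST1H1C, HIST1H2AC, HIST1H2BD, HIST1H2BK, HIST2H2BE and HIST1H4H are known to. Labelling by the kit named in the labels starts from an oligo-dT primer, so that the signal reads polyadenylated or internally primed RNA. What share of histone RNA that is was not measured. In bulk RNA, fewer cells in S phase and less histone RNA per cell cannot be told apart.

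Where the array elements lie decided what they could read. An element has 60 bases, and 8 of 84 (9.52%) held CTTTTCAG, the core of the histone stem-loop, against 0.225% of all elements. The last 30 bases of 4 of them are shown, with the core in capitals, because these genes recur below.

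HIST1H2AG: atcgagtccaaaccaacggctCTTTTCAGg
HIST1H2AI: ggaaccaaaggctCTTTTCAGagccaccta
HIST1H2BE: aaacccaaaggctCTTTTCAGagccactca
HIST3H2BB: ggcgtcctgaacccaaaggctCTTTTCAGa

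These elements lay on hg19 at chr6:27101247-27101306 and chr6:27776386-27776445, at chr6:26184399-26184458 and at chr1:228646192-228646251, all on the plus strand. The same letters can lie elsewhere in a gene, and a match does not show that an element covers the stem-loop. HIST1H2BK and HIST1H2AC each had an element at the gene and another far downstream. The last 30 bases of each are shown, since their signals differed between lines (below), first the element at the gene and then the downstream one.

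HIST1H2BK, at the gene: tactccgtatacgtgtacaaggtgctgaag
HIST1H2BK, downstream: ctgttcctcaaagaattgtctacattaccc
HIST1H2AC, at the gene: gctcgcgccaaagcgaaatcccgctcttct
HIST1H2AC, downstream: acctgtccactgttggtaggcacttgagtt

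On hg19 the HIST1H2BK elements lay at chr6:27114437-27114496 and chr6:27106191-27106250 on the minus strand, 8.25 kb apart. The HIST1H2AC elements lay at chr6:26124461-26124520 and chr6:26138822-26138881 on the plus strand, 14.42 kb from the first to the last of its 3 elements.

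Histone genes of one type are close copies, and an element can bind RNA of another gene. The closest other histone element matched at a median of 36 of 60 positions (range 23 to 53). At 50 or more positions 5 pairs matched, namely HIST1H2AD with HIST1H2AK (53), and with 51 each HIST1H2AJ with HIST1H2AK, HIST1H2BD with HIST1H2BK, HIST1H3F with HIST1H3H and HIST1H2BI with HIST2H2BF. The signals of these genes are uncertain as signals of single genes. Elements were compared with each other and not with the transcripts of other genes. Elements at different places in like genes match at few positions, so that a low match does not show that an element reads a single gene.

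The lines matched their names in part. CALCA, which encodes calcitonin, was at a normalised log2 signal of 18.49 and 18.61 in the TT CTL arrays against 3.91 and 3.57 in the Nthy-ori 3-1 CTL arrays, and RET, CHGA and CEACAM5 were also higher in TT cells. Of 7 follicular markers, PAX8 and FOXE1 were higher in Nthy-ori 3-1, whereas TG and NKX2-1 were higher in TT and TSHR was under 3 in every array. SEC23A, which the study follows as a miR-375 target, was 1.39 lower on the log2 scale with pre-miR-375 (SE 0.12, unadjusted p = 0.007 and adjusted p = 0.318 with limma) and 0.65 higher with antagomiR-375 (SE 0.09, unadjusted p = 0.015, adjusted p = 0.512). The mature sequence of miR-375 (RefSeq, GRCh38.p14, chr2:219001648-219001669, minus strand) is shown with its seed, bases 2 to 8, in capitals.

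hsa-miR-375-3p: uUUGUUCGuucggcucgcguga

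Of all array elements, 51.6 to 61.1% were well above background per array. The histone genes were among the bright ones. Between 63 and 65 of 70 were well above background on each array by their brightest element, which stands for a gene from here on. The median histone signal lay between 12.21 and 13.21 on the normalised log2 scale. HIST1H4C, an H4 gene, had the highest signal in both lines, with 17.91 and 17.50 in Nthy-ori 3-1 CTL and 17.67 and 17.64 in TT CTL, followed by HIST3H3 and HIST1H4L. The HIST3H3 element matched that of HIST1H3C at 44 of 60 positions, and the part of other H3 genes in its signal was not tested. HIST1H1T, a testis-specific H1, HIST2H2BA and HIST2H4A were not well above background on any array. Levels of different elements cannot be ranked as amounts of RNA, since each element has its own brightness.

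Replicate arrays of a group differed in histone signal as a block. Replicate 1 was above replicate 2 for 62 of 63 histone genes in Nthy-ori 3-1 CTL and with pre-miR-375, with median differences of 0.73 and 1.01 on the log2 scale, where all genes had 0.04 and 0.01. In TT the median differences were 0.33 for CTL (60 of 62 higher) and 0.09 for antagomiR-375 (50 of 62 higher), and all genes had 0.01 in both. Replicate number was also the slide, and each slide held a treated and a control array of 1 line. Differences between treated and control arrays are therefore given within each slide beside the fitted value.

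With pre-miR-375, the H2B genes had the highest median of the histone types in Nthy-ori 3-1 cells. At an average normalised log2 signal of 6 or more, 63 histone genes were tested, and their median log2 fold change was 0.13, against 0.05 over 15890 genes. The 17 H2B genes had a median of 0.53, and 16 of 17 were positive. H2A had 0.15 (14 of 15 positive), H1 0.12 (4 of 5), H3 -0.02 (6 of 13) and H4 -0.03 (5 of 13). No histone gene had an adjusted p of 0.05 or less with limma, and over all genes the share was 0%. At an unadjusted p under 0.05, 12 histone genes (19%) were higher, where 11% of all genes were. In the other direction 1 histone gene was lower, where 11.8% of all genes were. Of the 12, 9 were H2B genes. The C cell markers CALCA (8.12 and 4.51) and CHGA (4.91 and 5.13), not well above background on the CTL arrays, were so on both pre-miR-375 arrays (adjusted p = 0.511 and 0.363), and their part in the histone values was not tested. Without the slide as a block 2 histone genes were higher and none lower, and with 75th percentile scaling 0 were called in either direction.

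**Figure D1:**
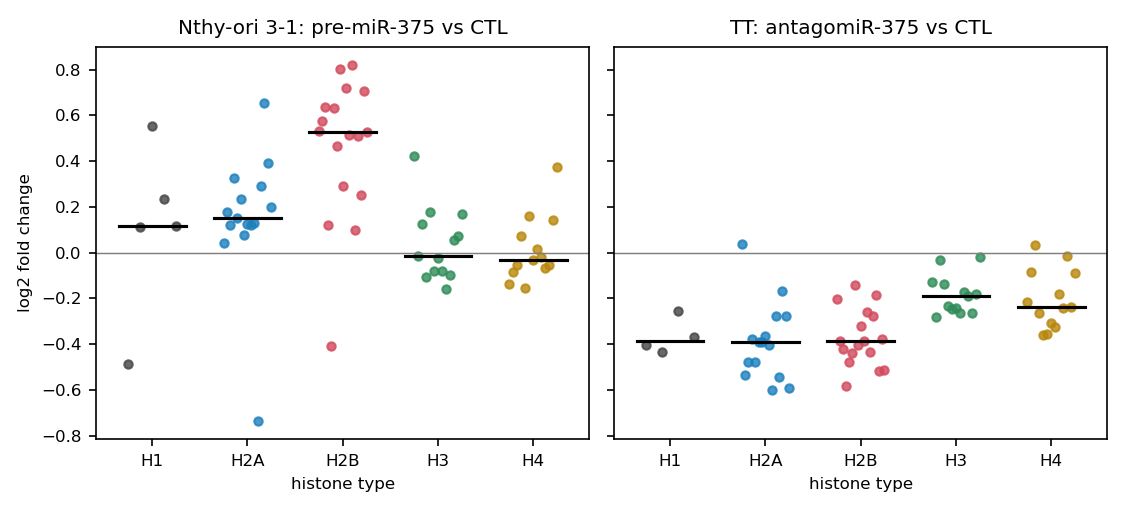
Log2 fold change of each histone gene (points) by type, with the median of the type (line), for pre-miR-375 against CTL in Nthy-ori 3-1 (left) and antagomiR-375 against CTL in TT (right). H2B genes had a median of 0.53 on the left, and on the right all type medians lay between -0.39 and -0.19.

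The slides gave unlike values for every type but H2B. The H2B median was 0.49 on the slide of replicate 1 and 0.60 on that of replicate 2. The H2A median was 0.28 and 0.03, the H1 median 0.36 and -0.12, the H3 median 0.16 and -0.17 and the H4 median 0.12 and -0.17. Over all histone genes the medians were 0.30 and -0.01, and over all genes 0.05 and 0.02. In both slides 30 histone genes were higher, 47.6% of those tested, where 41.2% of all genes were. Lower in both slides were 4 (HIST1H1A, HIST1H2BF, HIST1H3I and HIST1H4C), where 33.4% of all genes were. Of the 17 H2B genes, 13 were higher in both slides and HIST1H2BF was lower in both.

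**Figure D2:**
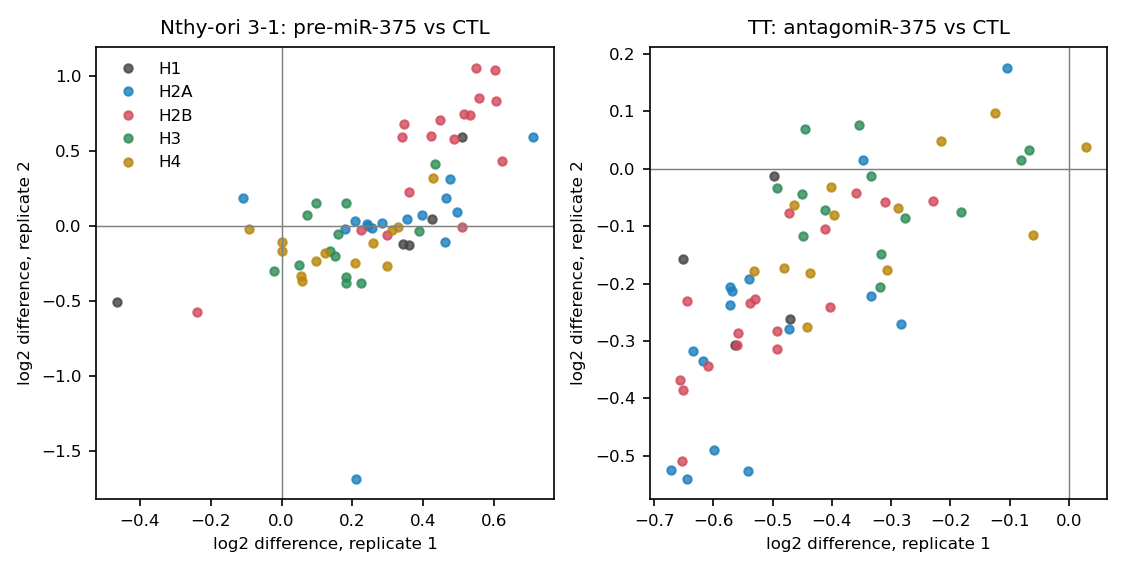
Log2 difference between treated and control array on the slide of replicate 1 (horizontal) and of replicate 2 (vertical), 1 point per histone gene, coloured by type. H2B genes fill the upper right of the left panel, with medians of 0.49 and 0.60, and 53 of 62 genes lie in the lower left quadrant of the right panel.

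HIST1H2BM had the highest value among the histone genes. Its normalised log2 signal was 12.78 and 12.33 in the CTL arrays and 13.38 and 13.37 with pre-miR-375, so that the groups did not overlap. The log2 fold change was 0.82 (SE 0.17, unadjusted p = 0.0421, adjusted p = 0.336, limma). HIST1H2BI was at 12.63 and 12.01 in the CTL arrays and at 13.18 and 13.07 with pre-miR-375, a log2 fold change of 0.80 (SE 0.20, adjusted p = 0.357). Its closest copy on the array, HIST2H2BF, was at 13.01 and 12.54 and then at 13.56 and 13.39, a log2 fold change of 0.71 (SE 0.13, adjusted p = 0.327). Both were higher on both slides, and neither group overlapped the other.

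By their brightest elements, genes known for polyadenylated transcripts did not move together. HIST1H2BK was at 12.36 and 11.96 in the CTL arrays and at 12.96 and 12.80 with pre-miR-375, a log2 fold change of 0.72 (SE 0.11, adjusted p = 0.318). HIST1H2BD had 12.06 and 11.45, then 12.59 and 12.19, and a log2 fold change of 0.64 (SE 0.11, adjusted p = 0.322). HIST1H1C, a linker histone, had 14.27 and 13.54, then 14.78 and 14.13, and a log2 fold change of 0.55 (SE 0.08, adjusted p = 0.318). These were higher on both slides. HIST1H2AC (0.12), HIST2H2BE (0.25) and HIST1H4H (-0.03) had differences of opposite sign on the slides. For HIST1H2AC this depended on the element. Its downstream element (below) was higher on both slides, by 0.53 and 0.86, and another element of that gene had -0.35 and 0.01.

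HIST1H2BF went the other way from the other H2B genes. Its signal was 11.37 and 9.44 in the CTL arrays and 11.13 and 8.86 with pre-miR-375, and the log2 fold change was -0.41 (SE 0.14, adjusted p = 0.436). The groups overlapped, and within each group replicate 1 was far above replicate 2. Among linker histones HIST1H1A had 10.91 and 10.18 in the CTL arrays and 10.45 and 9.67 with pre-miR-375, a log2 fold change of -0.49 (SE 0.08, unadjusted p = 0.027, adjusted p = 0.32), the value furthest below 0 among genes lower in both slides. HIST1H1B, HIST1H1D and HIST1H1E had log2 fold changes of 0.11, 0.24 and 0.12, of which HIST1H1D alone was positive on both slides. HIST1H2AL had the lowest fitted value, -0.74, from a single array (8.32 with pre-miR-375, replicate 2, where the other 3 arrays gave 10.00 to 10.38), and its slide 1 difference was 0.21.

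H2B genes whose element resembled that of another histone gene had the higher values. Across the 17 H2B genes, the number of positions matching the closest other histone element and the log2 fold change with pre-miR-375 had a Pearson r of 0.69 and a Spearman rho of 0.76, given as a description since the points share arrays and sequence. The 5 lowest H2B genes (HIST1H2BF, HIST1H2BN, HIST1H2BE, HIST2H2BE and HIST1H2BJ) had elements matching at 34 to 36 positions. The 5 highest (HIST1H2BM, HIST1H2BI, HIST1H2BK, HIST2H2BF and HIST1H2BD) matched at 45 to 51. HIST1H2BB (35 positions, 0.53) and HIST3H2BB (31 positions, 0.53) were high with few matches. With antagomiR-375 the same r was 0.02 and rho 0.17. The match is between elements and not with transcripts, so that few matches do not show that an element reads a single gene. The part of shared binding in the H2B values was not tested.

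H2A and H2B genes often lie head to head and share a promoter region. By the RefSeq starts, 11 such pairs had starts 194 to 248 bases apart. With pre-miR-375, 9 pairs passed the signal minimum, with a median log2 fold change of 0.15 for the H2A and 0.51 for the H2B partner. The H2B partner had the higher value in 7 of 9 pairs and in 4 of 9 on both slides, namely HIST1H2AC with HIST1H2BC, HIST1H2AE with HIST1H2BG, HIST1H2AI with HIST1H2BL, and HIST1H2AJ with HIST1H2BM. Among these the gap was widest for HIST1H2AJ (0.12) and HIST1H2BM (0.82). HIST1H2AD (0.33) and HIST1H2BF (-0.41) lay further apart still and had the reverse order on both slides, as had HIST1H2AK (0.13) and HIST1H2BN (0.10). With antagomiR-375 the 9 pairs tested had medians of -0.39 for H2A and -0.43 for H2B, and the H2B partner had the higher value in 6 of 9 pairs and in 4 of 9 on both slides.

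**Figure D3:**
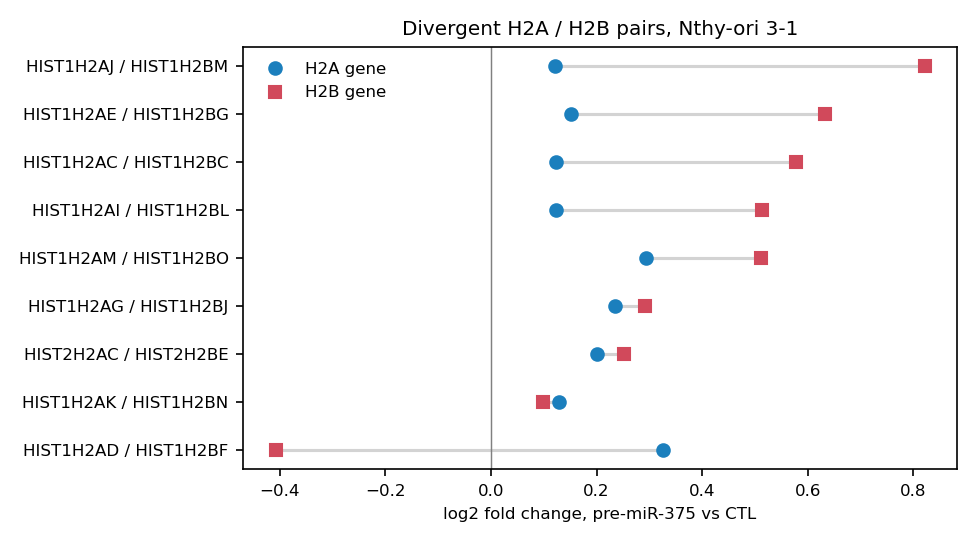
Log2 fold change with pre-miR-375 in Nthy-ori 3-1 of the H2A (circle) and H2B (square) gene of each divergent pair, 9 pairs. The H2B square lies to the right in 7 of 9 pairs, furthest for HIST1H2BM at 0.82.

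Upstream sequence was looked up for 62 of the 70 genes in the RefSeq promoter table (GRCh38.p14, 250 bases before to 50 after the start). ATTTGCAT, the octamer that POU2F1 and its relatives bind, was found on either strand in 14 of 18 H2B, 11 of 15 H2A, 1 of 11 H3, 0 of 6 H1 and 0 of 12 H4 promoters, against 1.77% of 35116 promoters. The windows of a divergent pair share 253 to 293 of their bases, so that 1 octamer can count for both partners. The H3 promoter with an octamer, that of HIST1H3D, is the same window as that of HIST1H2AD, an H2A gene. In H2B promoters its first base lay at positions -149 to -45 from the start, with a median of -49. TATAAA was in 3 of 6 H1, 11 of 15 H2A, 12 of 18 H2B, 8 of 11 H3 and 7 of 12 H4 promoters (11.53% of all promoters). CCAAT, bound by NF-Y, was in every H1, H2A, H2B and H3 promoter and in 3 of 12 H4 promoters (34.61% of all promoters). None of these strings contains another. The 110 bases before the start are shown for the pair that holds the highest H2B value and for an H4 gene, with ATTTGCAT and TATAAA in capitals.

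HIST1H2BM: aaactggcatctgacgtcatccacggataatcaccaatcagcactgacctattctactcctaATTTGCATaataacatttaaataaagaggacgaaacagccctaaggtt
HIST1H2AJ: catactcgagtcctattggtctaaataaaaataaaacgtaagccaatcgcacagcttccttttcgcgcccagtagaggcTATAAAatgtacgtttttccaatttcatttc
HIST1H4J: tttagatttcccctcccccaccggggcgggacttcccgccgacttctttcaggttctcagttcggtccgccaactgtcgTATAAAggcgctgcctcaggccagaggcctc

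They lie on GRCh38.p14 at chr6:27814912-27815021 (plus strand), chr6:27814778-27814887 (minus strand) and chr6:27823982-27824091 (plus strand). An octamer did not mark the H2B genes with the higher values. HIST1H2BD and HIST1H2BL had none, at log2 fold changes of 0.64 and 0.51, as had HIST1H2BN (0.10) and HIST3H2BB (0.53), whereas HIST1H2BF (-0.41) and HIST1H2BE (0.12) had 1 each.

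The downstream element of HIST1H2BK had a larger difference than the element at the gene. It read 12.71 and 12.37 in Nthy-ori 3-1 CTL and 13.92 and 13.92 with pre-miR-375, a log2 fold change of 1.38 (SE 0.15, unadjusted p = 0.0111, adjusted p = 0.318, limma). The difference was 1.21 on one slide and 1.56 on the other, where the element at the gene had 0.60 and 0.84. The downstream element of HIST1H2AC had 9.86 and 9.72, then 10.39 and 10.58, and a log2 fold change of 0.70 (SE 0.14, adjusted p = 0.335), where the brightest element at the gene had 0.12 (SE 0.12). Unlike the elements at the genes, neither downstream element was higher in replicate 1 than in replicate 2 of the pre-miR-375 arrays. The difference between elements of a gene was not tested, and the HIST1H2BK element at the gene closely resembles that of HIST1H2BD (above).

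**Figure D4:**
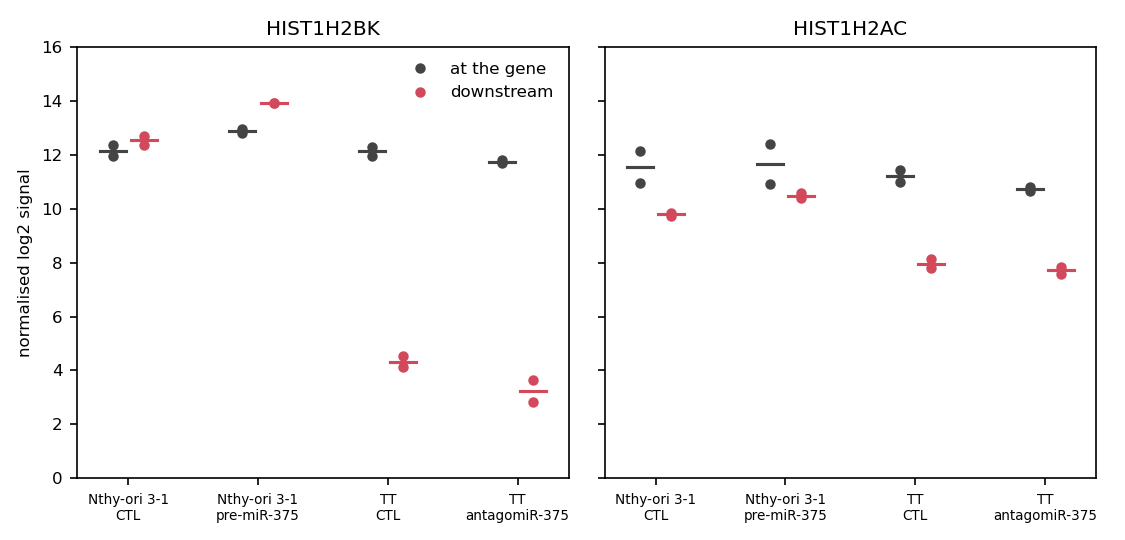
Normalised log2 signal of the element at the gene (dark) and the downstream element (red) of HIST1H2BK and HIST1H2AC in each of the 8 arrays, by group, with the group mean as a line. The downstream HIST1H2BK element lies at 12.37 to 13.92 in Nthy-ori 3-1 and at 2.83 to 4.54 in TT.

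Genes that make, process or replace histones gave the setting, and none had an adjusted p of 0.05 or less with pre-miR-375. LSM11, a U7 snRNP subunit, was at 6.42 and 6.08 in the CTL arrays and at 7.91 and 7.30 with pre-miR-375, a log2 fold change of 1.36 (SE 0.12, unadjusted p = 0.00828, adjusted p = 0.318). In the same list of 18 genes of 3' end processing at the minimum, 1 was higher and 5 lower at an unadjusted p under 0.05 (median -0.21). By that rule 11% of all genes were higher and 11.8% lower. CSTF2, a cleavage stimulation subunit, was at -1.38 and SLBP at -0.43. ZNF473 was at -0.21 and CASP8AP2 at 0.07. Of 9 genes of histone transcription, 2 were higher and 2 lower (median -0.22), from CCNE2, an S phase cyclin, at 0.90 to YY1 at -0.57. NPAT, the coactivator of histone loci, had 0.08 at an average below the minimum. Of 16 S phase genes none was higher and 3 were lower at an unadjusted p under 0.05 (median -0.04), from CDT1 at 0.29 to TYMS, thymidylate synthase, at -1.44.

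The histones not confined to S phase were also mostly positive. Of 11 genes 9 had a positive log2 fold change with pre-miR-375, where 8822 of 15890 genes were positive. The median of the 11 was 0.30 (0.08 and 0.44 on the slides of replicates 1 and 2). At an unadjusted p under 0.05, 1 was higher, where 11% of all genes were. That gene was H2AFJ, an H2A variant, at 12.89 and 12.28 in the CTL arrays and 13.46 and 13.17 with pre-miR-375 (log2 fold change 0.73, SE 0.14, adjusted p = 0.327). CENPA, the centromeric H3, was lowest at -0.07. Of 5 decay genes 1 was lower (LSM1, -0.54), where 11.8% of all genes were, and XRN1 was highest (0.26). Of 7 chaperones none was called, from ASF1B at 0.59 to CHAF1B at -0.11.

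With antagomiR-375, nearly all histone genes had lower signals in TT cells. Of 62 genes at the signal minimum, 60 had a negative log2 fold change, with a median of -0.28 against -0.01 over 16260 genes. The medians by type were -0.39 for H1, H2A and H2B, -0.24 for H4 and -0.19 for H3. In both slides 53 histone genes (85.5%) were lower, where 36.2% of all genes were. Only HIST1H4C was higher in both slides, where 31.9% of all genes were. At an unadjusted p under 0.05 with limma, 6 histone genes (9.68%) were lower, where 4.78% of all genes were, and none was higher, where 5.41% of all genes were. With adjustment none passed, as over all genes (0%). The count of lower genes at an unadjusted p under 0.05 was 38 with normexp background correction and 35 with the deposited log2 values.

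The size of the difference varied by slide. The histone median was -0.46 on the slide of replicate 1 and -0.18 on that of replicate 2, while over all genes it was -0.02 and -0.01. The 17 H2B genes were all lower on both slides, with medians of -0.53 and -0.24. In the labels both TT CTL arrays have an RNA integrity number of 8 and both antagomiR-375 arrays 9, so that RNA quality and treatment cannot be told apart in this comparison. All 4 Nthy-ori 3-1 arrays had 9.

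The genes with the lowest values were small in difference and close between replicates. HIST1H2AL was at 10.54 and 10.12 in the CTL arrays and 9.87 and 9.60 with antagomiR-375, a log2 fold change of -0.60 (SE 0.10, unadjusted p = 0.0215, adjusted p = 0.512). HIST3H2A had 8.90 and 8.72, then 8.26 and 8.18, and a log2 fold change of -0.59 (SE 0.09, adjusted p = 0.512). In both the groups did not overlap. HIST1H2BE, whose element holds CTTTTCAG, had 7.68 and 7.40, then 7.02 and 6.89, and a log2 fold change of -0.58 (SE 0.10, adjusted p = 0.512). HIST2H2AA4 had 10.38 and 10.14, then 9.78 and 9.65, and a log2 fold change of -0.54 (SE 0.09, adjusted p = 0.512). HIST1H2AB (-0.53) and HIST2H2BE (-0.52) were the other genes at an unadjusted p under 0.05.

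The 3 brightest histone genes had differences near 0, as had the less bright HIST1H3C (-0.03). HIST1H4C read 17.67 and 17.64 in the CTL arrays and 17.69 and 17.68 with antagomiR-375 (log2 fold change 0.03, SE 0.08), HIST3H3 had -0.02 (SE 0.09) and HIST1H4L -0.01 (SE 0.11). No spot of any array was marked as saturated. The H1 genes HIST1H1B, HIST1H1C, HIST1H1D and HIST1H1E had log2 fold changes of -0.40, -0.44, -0.26 and -0.37, each negative on both slides. Of the genes with known polyadenylated transcripts, HIST1H2AC (-0.48), HIST1H2BD (-0.42), HIST1H2BK (-0.39) and HIST1H4H (-0.31) lay in the same range. HIST1H1A and HIST1H2AG were not well above background on any TT array and HIST4H4, the gene of the fourth cluster, had -0.09 (SE 0.08).

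The lists of S phase genes and of histone metabolism had medians from -0.08 to 0.07 in TT, and their difference from the histone genes was not tested. The 15 S phase genes at the minimum had a median of -0.004 (8 of 15 negative), and none was called at an unadjusted p under 0.05. By that rule 5.41% of all genes were higher and 4.78% lower. CCNA2, cyclin A, had the lowest value, -0.26, and CDC6, a licensing factor, the highest, 0.40. The 11 histones not confined to S phase had a median of -0.05, 5 positive and 6 negative, from CENPA at -0.27 to H1FX, a linker histone, at 0.08. In 3' end processing (median 0.04) 1 of 17 genes was lower at an unadjusted p under 0.05, COIL at -0.40. LSM11 was lowest at -0.50 (SE 0.17, unadjusted p = 0.0925, limma) and SRRT highest at 0.38, and SLBP was at 0.08. ZNF473 was at 0.26, and CASP8AP2 (0.15) and NPAT (-0.30) were below the minimum. In histone transcription, with a median of -0.08, 2 of 9 were lower at an unadjusted p under 0.05 (CCNE1, -0.37, and CDK2, -0.48, the lowest of the list). In both slides 5 of 9 were lower, where 36.2% of all genes were, and E2F3 was highest at 0.17. Of 5 decay genes none was called (ZCCHC11 -0.09 to UPF1 0.16), and of 7 chaperones 1 was higher, CHAF1A at 0.42, with ASF1B lowest at -0.31.

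Between the control cells of the lines, few histone genes passed adjustment, and a few were far apart. Of 64 genes at the signal minimum, 44 were higher in TT CTL than in Nthy-ori 3-1 CTL, with a median log2 fold change of 0.29 against -0.05 over 15962 genes. At an adjusted p of 0.05 or less with limma, 2 histone genes (3.12%) were higher in TT, where 18.9% of all genes were, and 3 (4.69%) were lower, where 19% of all genes were. Without adjustment 7 were higher, where 26.2% of all genes were, and 5 were lower, where 28.1% of all genes were. In both counts the lower genes include HIST1H1A and HIST1H2AG, which reached the signal minimum through Nthy-ori 3-1 alone. HIST3H2A, among the 7, reached it through TT. The groups did not overlap for 17 histone genes higher in TT and 10 lower, where 5827 and 6464 of 15962 genes did not. A gene that did not pass is not shown to be alike in the lines. Without Nthy-ori 3-1 CTL replicate 2 the median was -0.027, without TT CTL replicate 1 it was 0.043, and with the deposited log2 values it was -0.093. Each slide held a single line, so that line and slide cannot be told apart. Nor can line be told apart from RNA quality, dose or control reagent. In the labels the TT CTL arrays have an RNA integrity number of 8 and 20 nM, the Nthy-ori 3-1 CTL arrays 9 and 5 nM. The control arrays also serve the treatment comparisons above.

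**Figure D5:**
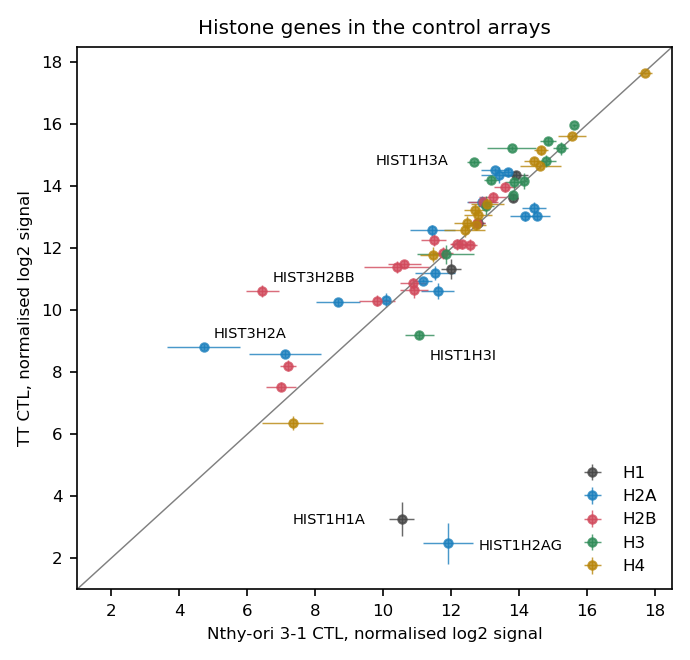
Normalised log2 signal of the histone genes in Nthy-ori 3-1 CTL (horizontal) and TT CTL (vertical), coloured by type, each point the mean of 2 arrays and each bar the span of those arrays. HIST1H2AG and HIST1H1A lie far below the line of equal signal, and HIST3H2BB and HIST3H2A above it.

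The 3 genes that passed adjustment as lower in TT were HIST1 genes, as were 52 of the 64 genes tested. HIST1H2AG was at 12.66 and 11.16 in Nthy-ori 3-1 CTL and at 3.14 and 1.81 in TT CTL, where it was not well above background. Against the lowest signal well above background it was at least 365-fold lower in TT (adjusted p = 0.0091). Its element holds CTTTTCAG and lies at chr6:27101247-27101306 of hg19. HIST1H2BJ, which lies head to head with it, was at 11.10 and 10.15 in Nthy-ori 3-1 CTL and at 11.61 and 11.37 in TT CTL (log2 fold change 0.87, SE 0.40, adjusted p = 0.242). HIST1H1A was at 10.91 and 10.18 in Nthy-ori 3-1 CTL and not well above background in TT CTL (3.81 and 2.70), at least 129-fold lower (adjusted p = 0.00703). Both genes reached the signal minimum through Nthy-ori 3-1 alone. With 1 of the Nthy-ori 3-1 CTL arrays left out both had an adjusted p of 0.0349 to 0.0397, at an average then below the minimum, and with 1 of the TT CTL arrays left out 0.0568 to 0.0775. Without TT CTL replicate 1 no element on the array passed. HIST1H3I fell from 11.49 and 10.65 to 9.34 and 9.07, a log2 fold change of -1.86 (SE 0.36, adjusted p = 0.0467), which with 1 array left out passed only without Nthy-ori 3-1 CTL replicate 2. HIST1H2AJ had a log2 fold change of -1.50 (SE 0.34, adjusted p = 0.0657).

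The other linker histones had smaller differences between the lines than HIST1H1A. HIST1H1B had a log2 fold change of -0.67 (SE 0.36), HIST1H1C 0.46 (SE 0.33), HIST1H1D 0.01 (SE 0.23) and HIST1H1E -0.20 (SE 0.20). None of these passed the test.

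The HIST3 pair stood at the other end. HIST3H2BB was at 6.93 and 5.95 in Nthy-ori 3-1 CTL and at 10.82 and 10.44 in TT CTL, a log2 fold change of 4.18 (SE 0.43, adjusted p = 0.013). HIST3H2A, its head-to-head partner, had 5.79 and 3.64, then 8.90 and 8.72, and a log2 fold change of 4.10 (SE 0.86, adjusted p = 0.0537), which missed the threshold. It passed with the slide as a random block (adjusted p = 0.00951), with 75th percentile scaling, normexp, the deposited values, the mean of elements or without dim elements. Without 1 of the Nthy-ori 3-1 CTL arrays it also passed, at 5.18 without replicate 1 and 3.02 without replicate 2. In Nthy-ori 3-1 CTL it was well above background on 1 of 2 arrays and passed the signal minimum through TT. HIST1H3A was at 12.88 and 12.46, then 14.86 and 14.72, and rose in TT by 2.12 on the log2 scale (SE 0.21, adjusted p = 0.0122). HIST3H2BB and HIST1H3A also passed with 1 of the Nthy-ori 3-1 CTL arrays left out, whichever it was, and did not pass with 1 of the TT CTL arrays left out. HIST3H3, the testis H3 in the same cluster, had 0.35 (SE 0.14, adjusted p = 0.179).

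All 8 HIST2 genes at the minimum had a positive value in TT against Nthy-ori 3-1, with a median of 0.98, against 0.09 for 52 HIST1 genes, and none passed adjustment. HIST2H2AA4 was highest at 1.59 (SE 0.53, adjusted p = 0.138). HIST4H4 was at 8.24 and 6.44 in Nthy-ori 3-1 CTL and 6.58 and 6.14 in TT CTL (log2 fold change -0.98, SE 0.74, adjusted p = 0.45), with overlapping groups. HIST1H2BA, a testis-specific H2B named here after its values were seen, was not well above background in Nthy-ori 3-1 CTL and at 7.39 and 5.02 in TT CTL, at least 3.6-fold higher (adjusted p = 0.056). Its average was below the signal minimum, so that it is not among the 64 genes, and its TT arrays lay far apart.

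The downstream elements of HIST1H2BK and HIST1H2AC passed the test between the lines, and the elements at those genes did not. The difference between elements was not tested. That of HIST1H2BK was at 12.71 and 12.37 in Nthy-ori 3-1 CTL and at 4.54 and 4.12 in TT CTL, where it was well above background on both arrays. It was lower in TT by a log2 fold change of -8.21 (SE 0.24, adjusted p = 0.00174), a fold of 296. The element at the gene had -0.03 (SE 0.23, adjusted p = 0.944), with 12.36 and 11.96 against 12.29 and 11.96. The element at the gene matched that of HIST1H2BD at 51 of 60 positions, so that its signal is uncertain as that of HIST1H2BK alone. The downstream element of HIST1H2BK matched other histone elements at 24 positions at most. The part of shared binding was not tested. The downstream element of HIST1H2AC had a log2 fold change of -1.83 (SE 0.18, adjusted p = 0.0122) and the element at the gene -0.33 (SE 0.51, adjusted p = 0.708). The downstream element of HIST2H2BE, 1.04 kb away, was not well above background in Nthy-ori 3-1 CTL and at 4.79 and 4.39 in TT CTL. Against the lowest signal well above background it was at least 1.18-fold higher in TT (adjusted p = 0.00741, at an average below the signal minimum). The element at the gene had a log2 fold change of 1.01 (SE 0.25, adjusted p = 0.0782), and the order of the elements cannot be told.

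The S phase genes were lower in TT than in Nthy-ori 3-1, while the histone median took either sign with the arrays and values used (above). All 16 S phase genes had lower values in TT (median -1.01) and 11 passed adjustment. They ranged from ORC1, an origin recognition subunit, at -2.86 to MCM4, a helicase subunit, at -0.30. For this and the lists below, 18.9% of all genes were higher in TT and 19% lower at an adjusted p of 0.05 or less. In 3' end processing 7 of 18 genes passed adjustment, all lower in TT (median -0.84), with ERI1, an exonuclease that acts on histone mRNA, lowest at -1.97 and LSM11 highest at 0.81. SLBP was at -1.11 (adjusted p = 0.095), ZNF473 at -0.78 and CASP8AP2 at -1.15, and NPAT at -0.32 was below the minimum. Of 7 chaperones 6 fell, CHAF1B of the chromatin assembly complex furthest at -2.64, and ATRX was highest at 1.09. Of 9 transcription genes 1 rose (CCNE1, 0.63) and 2 fell (CDK2, -2.21, and E2F3, -1.39). Of 5 decay genes 2 fell, EXOSC10 (-1.77) and ZCCHC11 (-1.39), and XRN1 was highest at 0.48. Of 11 histones not confined to S phase 5 rose and 1 fell in TT, from H1F0, the H1 of resting cells, at 3.28 to H2AFJ at -1.86.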

How the data were processed

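Per the file headers, the authors scanned the arrays with Agilent Feature Extraction, and each deposited array file holds a processed intensity per spot, background subtracted and not normalized between arrays. They also deposited 1 table of log2 values, used here as an alternative. The labels name polyA RNA and the methods of the study total RNA. The labels give 5 nM and 20 nM, unlike the methods. The label titles number the replicates of TT 1 and 2, while other label fields give 1 array pair another number.

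Control spots and spots marked as outliers (341 to 428 per array) were left out, the processed intensity was converted to log2, and the mean was taken over spots of an element. Quantile normalization covered all 8 arrays (limma 3.58.1, R 4.3.3). Models were fitted per line (lmFit, eBayes) with replicate number (the slide) as a block, and for the control arrays without a block, with Benjamini-Hochberg adjustment over all elements. The methods of the study call the replicates biological, without saying whether they were separate cultures. The p-values measure the spread between these arrays. An exact permutation of 2 against 2 arrays cannot go below p = 0.333. The number of arrays limits the precision.

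Of several elements the brightest over 8 arrays stood for a gene, at an average log2 of at least 6 in the comparison. Named were the 4 highest and 4 lowest genes per comparison with the same direction in both slides (control groups: no overlap), the 3 brightest of each line, the measured H1 genes, genes with known polyadenylated transcripts, HIST3 and HIST4 genes, and in the companion lists SLBP, NPAT, CASP8AP2, LSM11, ZNF473 and the highest and lowest gene. Members and lists were chosen with earlier results of these data known. The genes most like HIST1H2BD over 8 arrays, which the rule also names, are not reported, because the arrays form 2 lines. Folds against a dim group use the lowest signal well above background. The steps were tested on simulated data. Alternatives are given in the closing section. Protein sequences were not used here.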

Additional observations from a re-analysis of the deposited data

How the results depend on the processing

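Among the single genes named, 866 values under the alternatives kept direction and side of the threshold, 18 passed it newly, 11 no longer did and 35 changed sign. The numbers pair arrays of a slide: same-numbered arrays deviated together with r = 0.785 in Nthy-ori 3-1 (24194 elements) and 0.33 in TT (27246). Without the replicate block, the pre-miR-375 count of higher histone genes went from 12 to 2 and of lower ones from 1 to 0, and the TT counts and both medians were the same. With 75th percentile scaling these pre-miR-375 counts were 0 and 0, with normexp 19 and 2. The count lower was 2 with the deposited log2 values and 0 with both lines fitted together. The H2B median stayed positive under each alternative run, and no histone gene passed adjustment in either treatment comparison. Over all elements 1560 passed with pre-miR-375 under normexp and 569 with the deposited values, and 0 with antagomiR-375 under either. The antagomiR-375 count of lower genes, 6, was 38 with normexp, 35 with the deposited values, 13 without dim elements and 10 with both lines fitted together, and its median stayed negative. Between lines the median was -0.093 with the deposited values, where all genes had a negative median too. There, 12 genes were higher at unadjusted p with normexp and with the slide as a random block, 12 were lower with the deposited values, and 10 passed adjustment with normexp, the deposited values or without dim elements. The cause was not tested.

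Leaving out replicates gave medians of -0.007 (without replicate 1) to 0.297 for pre-miR-375, -0.464 (without replicate 2) to -0.177 (without replicate 1) for antagomiR-375 and -0.027 (without Nthy-ori 3-1 CTL replicate 2) to 0.673 (without Nthy-ori 3-1 CTL replicate 1) between lines, with 0.043 and 0.46 without TT CTL replicates 1 and 2. With 1 array a group the treatment comparisons have values and no test. Between lines the lone array is assumed to vary like the other group; 2 to 21 genes were higher (21 without Nthy-ori 3-1 CTL replicate 1, 2 without either TT CTL array), 2 to 6 lower (2 without Nthy-ori 3-1 CTL replicate 1 or either TT CTL array) and 0 to 7 passed adjustment (0 without either TT CTL array, where 0 and 1582 of all elements did without replicate 1 and 2). HIST1H1A and HIST1H2AG fell below the minimum without either Nthy-ori 3-1 CTL array and are not in those counts.

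These named genes and type medians changed sign under an alternative. For pre-miR-375, leaving out a replicate gave -0.119 to 0.359 for H1 genes (median), -0.167 to 0.16 for H3 genes (median), -0.167 to 0.122 for H4 genes (median), -0.119 to 0.344 for HIST1H1B, -0.126 to 0.359 for HIST1H1E, -0.011 to 0.256 for HIST1H2AC, -1.686 to 0.212 for HIST1H2AL, -0.057 to 0.297 for HIST1H2BE, -0.182 to 0.122 for HIST1H4H, -0.106 to 0.0 for HIST1H4L and -0.007 to 0.51 for HIST2H2BE. For antagomiR-375, leaving out a replicate gave -0.125 to 0.097 for HIST1H4L and -0.068 to 0.033 for HIST3H3. There, the alternative of 75th percentile scaling gave -0.142 for HIST1H4C. There, the alternative of deposited log2 values gave 0.025 for HIST1H4L. There, the alternative of normexp background correction gave 0.014 for HIST1H4L. Between lines, leaving out a replicate gave -0.2 to 0.219 for HIST1H1D, -0.918 to 0.266 for HIST1H2AC, -0.198 to 0.409 for HIST1H2BD, -0.498 to 0.124 for HIST1H2BI, -0.231 to 0.164 for HIST1H2BK, -0.255 to 0.155 for HIST1H4C, -0.129 to 0.841 for HIST1H4H, -0.344 to 0.492 for HIST1H4L and -0.186 to 0.287 for HIST2H2BF. There, the alternative of 75th percentile scaling gave -0.056 for HIST1H1D, 0.329 for HIST1H4C and -0.012 for HIST2H2BF. There, the alternative of deposited log2 values gave -0.325 for HIST1H1D, -0.152 for HIST1H2AL, -0.324 for HIST1H2BD, -0.149 for HIST1H4L and -0.351 for HIST2H2BF. There, the alternative of mean of all array elements of a gene gave -0.374 for HIST2H2BF.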
